A study of Mus musculus with 8 samples.

Results

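The 9 genes described here encode the surface glycoproteins and the most abundant chemokines of platelets: Gp1ba, Gp1bb, Gp5, Gp6, Gp9, Itga2b, Itgb3, Pf4 and Ppbp. They were taken by symbol from a table of 47311 genes, and all 9 were found and passed the filter on low counts. RNA with a polyA tail had been sequenced from LSK cells, the marrow cells that lack lineage markers and carry Sca1 and Kit, a gate that holds blood stem cells and multipotent progenitors. The 8 mice were wild type (WT) or Asxl2 knockout (KO), and young (8 to 12 weeks) or old (over 1 year), with 2 mice in each of the 4 groups. Asxl2 encodes a chromatin protein that partners the deubiquitinase Bap1, and how the knockout was made is not given in the sources used here. Each group had 1 mouse in batch 1 and 1 in batch 2, and each of the 4 litters gave a KO and a WT mouse, which share age and batch.

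Platelets are shed by megakaryocytes, large marrow cells that descend from blood stem cells. Gp1ba, Gp1bb, Gp9 and Gp5 encode the subunits of the GPIb-IX-V complex, through which platelets catch von Willebrand factor on an injured vessel wall, and loss of Gp1ba, Gp1bb or Gp9 causes Bernard-Soulier syndrome. Gp6 encodes a collagen receptor, and Itga2b and Itgb3 encode the integrin that binds fibrinogen when platelets aggregate. Pf4 (CXCL4) and Ppbp (the precursor of CXCL7) are chemokines packed into the alpha granules. Some stem cells carry RNA of these genes before any platelet is made, and stem cells of aged mice are known for more of it.

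The promoters of the 4 GPIb-IX-V genes and of the neighbouring chemokine genes Pf4 and Ppbp are shown because the genes within each of these sets differed in their RNA levels, as the results describe. RefSeq (GRCm38.p6) gave promoters for 8 of the 9 members, all but Itgb3. Each line holds the 250 bases before the transcript start, 5′ to 3′ on the gene's strand. Capitals mark matches on either strand to 3 motifs of factors that act in megakaryocytes. The GATA motif was searched as AGATAA, and in its other form as TGATAA. The ETS motif was searched as AGGAAG, and in its other form as CGGAAG. The RUNX motif had the single form TGTGGT.
Gp1ba (chr11:70638872-70639121, plus strand): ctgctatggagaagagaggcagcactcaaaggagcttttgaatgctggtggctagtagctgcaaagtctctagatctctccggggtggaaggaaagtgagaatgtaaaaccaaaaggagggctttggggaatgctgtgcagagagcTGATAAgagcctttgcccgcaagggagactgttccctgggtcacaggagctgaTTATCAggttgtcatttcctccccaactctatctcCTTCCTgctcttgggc
Gp1bb (chr16:18622404-18622653, minus strand): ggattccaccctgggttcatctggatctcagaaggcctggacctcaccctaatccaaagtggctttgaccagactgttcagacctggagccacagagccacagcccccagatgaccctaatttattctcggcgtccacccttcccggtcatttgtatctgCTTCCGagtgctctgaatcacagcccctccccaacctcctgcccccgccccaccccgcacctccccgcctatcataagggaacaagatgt
Gp5 (chr16:30310782-30311031, minus strand): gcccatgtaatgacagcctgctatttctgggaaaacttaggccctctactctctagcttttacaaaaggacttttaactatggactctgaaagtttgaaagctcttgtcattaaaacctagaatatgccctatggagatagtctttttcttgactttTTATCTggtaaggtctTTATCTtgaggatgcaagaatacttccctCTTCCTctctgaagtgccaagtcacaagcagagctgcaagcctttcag
Gp9 (chr6:87777820-87778069, plus strand): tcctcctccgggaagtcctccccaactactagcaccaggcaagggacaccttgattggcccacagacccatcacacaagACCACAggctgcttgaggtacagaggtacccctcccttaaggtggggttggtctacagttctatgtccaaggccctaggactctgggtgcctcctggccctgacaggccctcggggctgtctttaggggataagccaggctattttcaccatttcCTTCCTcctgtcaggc
Pf4 (chr5:90772185-90772434, plus strand): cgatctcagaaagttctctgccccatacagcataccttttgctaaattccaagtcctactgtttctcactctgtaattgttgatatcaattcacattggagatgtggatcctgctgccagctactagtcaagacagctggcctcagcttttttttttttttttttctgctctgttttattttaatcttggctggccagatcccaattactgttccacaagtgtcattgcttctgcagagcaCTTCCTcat
Ppbp (chr5:90768268-90768517, plus strand): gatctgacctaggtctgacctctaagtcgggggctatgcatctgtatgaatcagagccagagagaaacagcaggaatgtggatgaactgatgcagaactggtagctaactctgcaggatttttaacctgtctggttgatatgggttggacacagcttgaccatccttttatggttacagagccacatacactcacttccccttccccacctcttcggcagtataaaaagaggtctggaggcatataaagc

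In the full window of 250 bases before and 50 after the start, an ETS match was present in 6 of the 8 members, a GATA match in 4 and a RUNX match in 1. Among all 32851 mouse promoters of the same length the shares with a match were 46.5%, 18.6% and 16.8%. Gp1ba and Gp9 each had an ETS match on the opposite strand that began 16 bases before the start, and in Pf4 it began 9 bases before. Gp1bb had its ETS matches 90 bases before and 21 bases after the start and no GATA match. Gp9 had no GATA match either, and Gp1ba and Gp5 had 2 GATA matches each. Ppbp had no match to any of the 3 motifs. These are matches of letters in 1 window, and no binding was measured.

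All libraries were deep, with 45737972 to 80388500 estimated counts. Asxl2 itself was at 23.0 to 30.8 TPM (kallisto's level of a transcript, scaled for its length and the library's depth) in the WT mice and at 4.63 to 5.63 in the KO mice. The markers of the sort were present in all libraries, Kit at 63.4 to 547.2 TPM and Ly6a, which encodes Sca1, at 149.6 to 660.6. Defining genes of mature megakaryocytes outside the 9 members were low: Tubb1, Mpig6b, P2ry12 and Treml1 stayed between 0.0694 and 5.03 TPM, and Nrgn alone of that 8-gene list was high (81.3 to 254.4). The batch 2 young WT library stood apart, with the highest Kit level and the weakest fall of level with transcript length (slope -0.27, against -0.55 to -0.88 in the other 7), and the slope was steepest in the 2 old KO libraries (-0.88 and -0.76). The 2 old batch 1 littermates carried Xist at 3.33 and 3.61 TPM against at most 0.0612 in the other 6 mice. Values without these 2 littermates stand beside the calls of Gp1bb and Itgb3, and for the genes of other lists they stand together after the lists.

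Over the 8 libraries Gp9 averaged 46.0 ± 12.0 TPM (SD, n = 8), Pf4 44.7 ± 14.7 and Itga2b 34.2 ± 10.6, and these 3 levels differed by less than their spread. Gp5 followed at 15.9 ± 4.96, below Itga2b by more than the spread of either. Gp1bb averaged 10.1 ± 9.87, Ppbp 4.87 ± 2.01, Gp1ba 3.89 ± 0.861 and Itgb3 2.82 ± 2.18, a sequence in which no neighbours were separated by more than the larger SD. Gp6 was last at 0.107 ± 0.0594, and only 6.14 to 64.0 estimated counts lay behind it in any library. The summed level of the 9 genes was 99.6 to 155.0 TPM in the young mice and 172.9 to 214.7 in the old mice. In bulk RNA a group with more cells that carry these transcripts cannot be told apart from one with more RNA per cell.

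**Figure D1:**
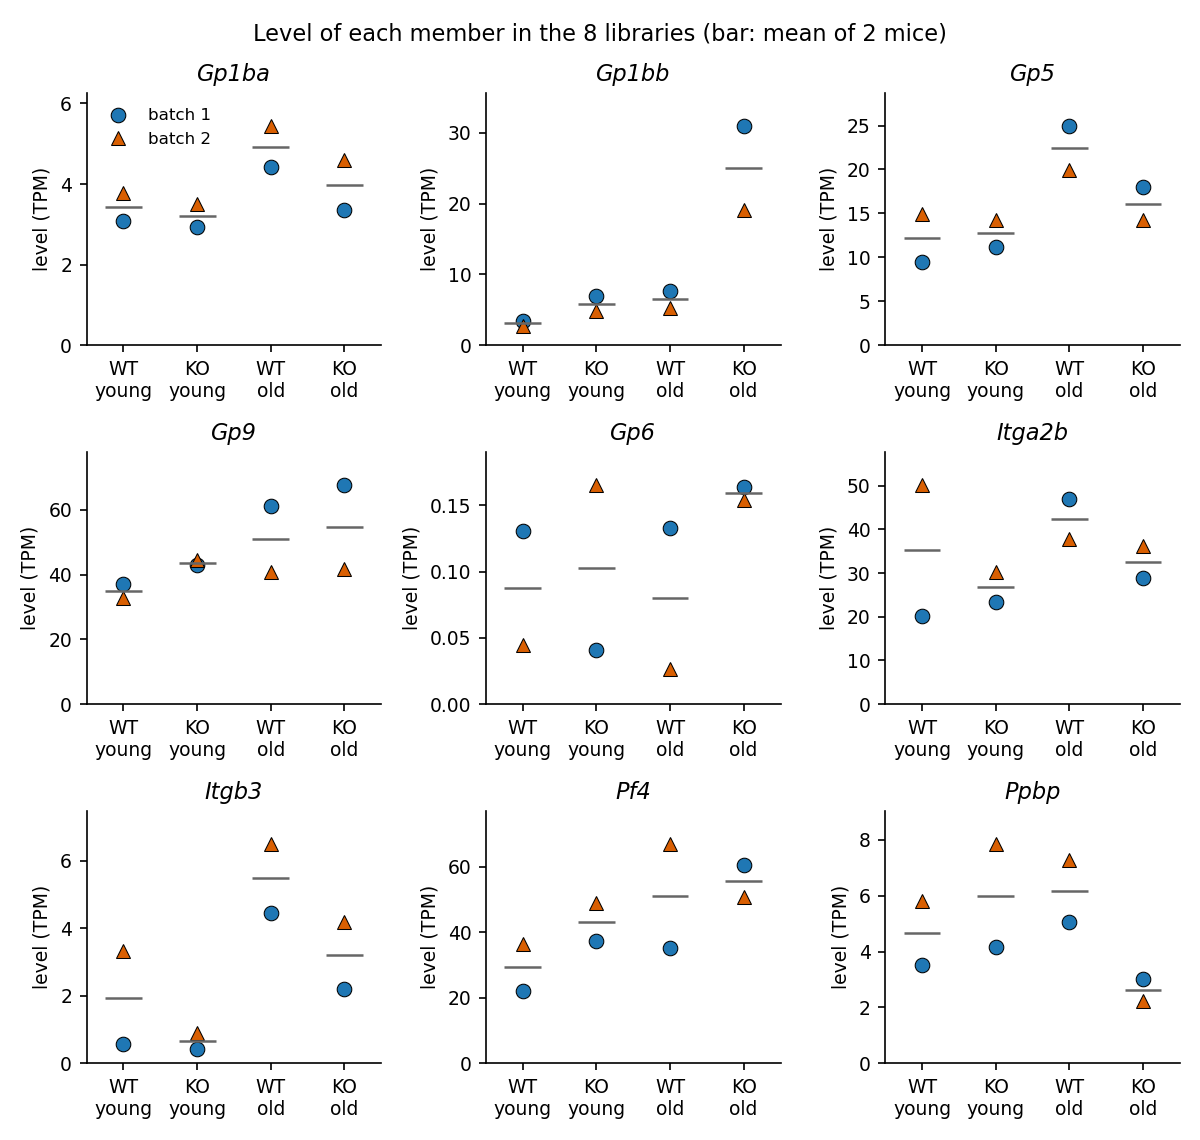
Level in TPM (linear axes that start at 0) of each of the 9 genes in the 8 libraries, by group, with circles for batch 1, triangles for batch 2 and bars for the mean of the 2 mice. Gp1bb reached 19.1 and 30.9 TPM in the old KO mice against at most 7.68 elsewhere, and Ppbp was lowest in the old KO mice, at 2.21 and 3.02 TPM.

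Gp1bb, the small disulfide-linked partner of Gp1ba, was the 1 member called for KO against WT over both ages. It was at 3.37 and 2.78 TPM in the young WT mice of batches 1 and 2, at 6.94 and 4.79 in young KO, at 7.68 and 5.28 in old WT, and at 30.9 and 19.1 in old KO. The KO mouse was above its WT littermate in 4 of 4 litters, the groups did not overlap within either age, and the old KO mice stood far above all others. Over both ages the log2 difference of Gp1bb was 1.56, higher in KO (SE 0.28, adjusted p = 0.0159, edgeR's quasi-likelihood test with Benjamini-Hochberg adjustment over 25543 genes, as for all adjusted p below unless another test is named). It was the only 1 of the 9 members that passed (threshold 0.05) in that comparison. There 9.98% of all genes tested were called (3.19% of all genes tested were higher in KO and 6.78% lower), so 1 of 9 was near that share.

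The KO difference of Gp1bb was 0.99 (SE 0.35, adjusted p = 0.477) in the young mice and 2.11 (SE 0.35, adjusted p = 0.0279) in the old mice, where 0.65% of all genes were called (0.204% higher and 0.446% lower). Neither age alone shows that the ages differ. The interaction of genotype with age was 1.12 (SE 0.48, unadjusted p = 0.0396, adjusted p = 1), and 0 of the 9 members passed in that test, in which 0.00391% of all genes were called. One member, Gp1bb, had an unadjusted p under 0.05 there, as had 1.98% of all genes. DESeq2's Wald test also called 0 members for the interaction, where it called 0.0274% of all genes.

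The call over both ages had behind it a difference of 1.66 within batch 1 and of 1.38 within batch 2, where each group had 1 mouse. It was lost without the batch 2 old KO mouse (adjusted p = 0.0598), without the batch 2 old WT mouse (0.0626), and without the litter of old batch 1 mice (1.30, adjusted p = 0.121). With litter as a replicate block it held (1.56, adjusted p = 0.035). It also held with a correction for transcript length (1.25, adjusted p = 0.0352), although the length slope was steepest in the same 2 old KO libraries. That correction used the deposited lengths of the Gp1bb transcripts, which differ from those of the GENCODE vM21 annotation. In old mice alone the call ended with the litter block (adjusted p = 0.0911) and without a batch term (0.16). It was also lost when any 1 of the 4 old mice was left out, with adjusted p of 0.0858 and 0.0561 without the batch 1 and batch 2 KO mouse, and of 0.106 and 0.158 without the batch 1 and batch 2 WT mouse. Without the old batch 1 litter it was 1.91 in old mice (adjusted p = 0.469).

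Gp1bb lies on mouse chromosome 16 (mm10, 18620317 to 18622403, minus strand), and 2 genes overlap it on the same strand: the last part of Sept5, a septin gene, over 1902 bases, and Gm49601, annotated as protein-coding, over 1938 bases. No level of Gm49601 was analysed here. Sept5 stayed between 0.798 and 1.52 TPM in all 8 libraries, with 0.86 and 1.00 in the old KO mice. Both Gp1bb transcripts were highest in old KO: the one deposited with 645 bases was at 25.2 and 13.6 TPM there against 2.12 to 5.74 in the other 6 libraries, and the one with 1847 bases at 5.68 and 5.57 against 0.656 to 1.94. GENCODE vM21 gives these transcripts 2085 and 1086 bases, so which stretch of the locus each stood for is not known here. With the Gp1bb and Sept5 counts summed, the KO difference over both ages was 1.13 (adjusted p = 0.0369).

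**Figure D2:**
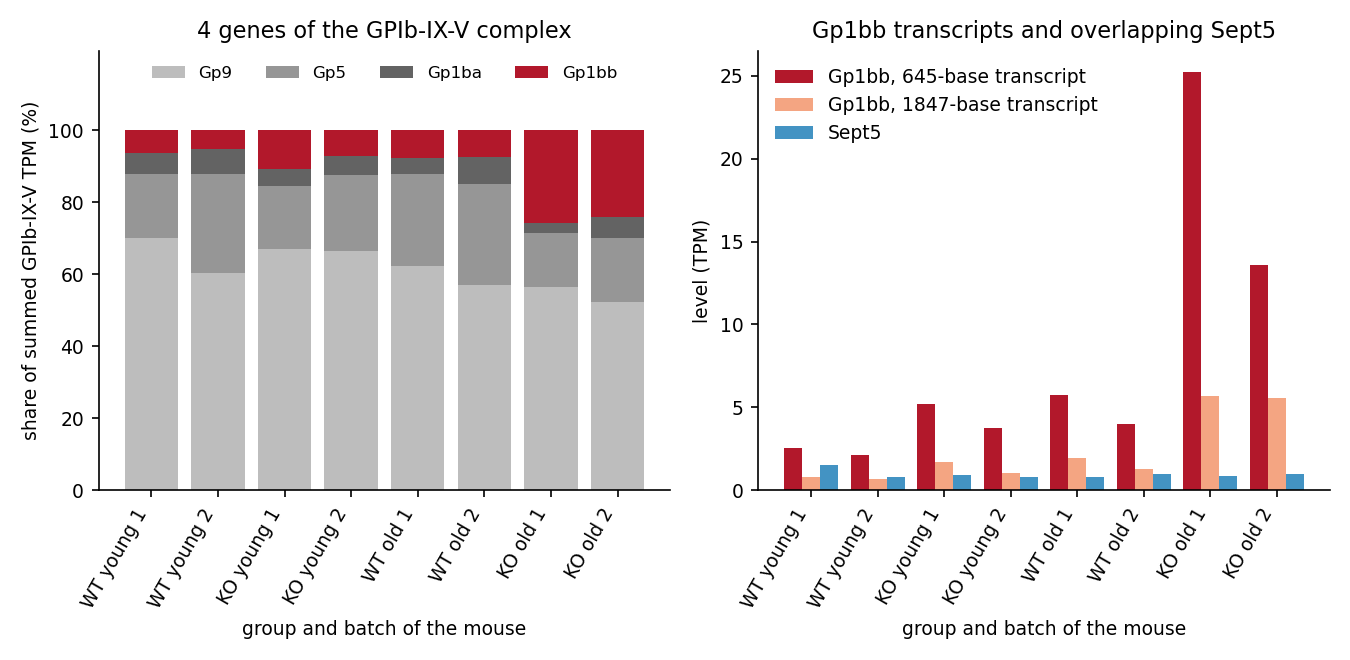
Left, share of the summed TPM of Gp1ba, Gp1bb, Gp5 and Gp9 in percent for each of the 8 mice (numbers on the x axis are batches). Right, TPM of the 2 Gp1bb transcripts and of Sept5 in the same mice, where the 645-base transcript reached 25.2 and 13.6 in old KO and Sept5 stayed at or below 1.52.

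The 3 other genes of the complex did not follow Gp1bb. Gp9, whose product holds the GPIb chains at the surface, was at 37.1 and 32.6 TPM in young WT, 42.8 and 44.4 in young KO, 61.2 and 40.7 in old WT, and 67.5 and 41.6 in old KO. It was above the WT littermate in 4 of 4 litters, but by only 0.03 to 0.45 on the log2 scale, and the KO difference was 0.37 (SE 0.17, adjusted p = 0.183). Gp1ba, whose product carries the von Willebrand factor site, was at 3.07 and 3.77 TPM in young WT, 2.94 and 3.496 in young KO, 4.42 and 5.43 in old WT, and 3.36 and 4.603 in old KO. It was below the WT littermate in 4 of 4 litters, and the fitted KO difference was -0.06 (SE 0.20, adjusted p = 0.868), which turned to 0.27 with the length correction. Gp5, the thrombin-cleaved subunit, was at 9.45 and 14.9 TPM in young WT, 11.2 and 14.3 in young KO, 24.9 and 19.98 in old WT, and 18.0 and 14.2 in old KO. Its KO and WT mice overlapped in the young group, both old KO mice were below both old WT mice, and the KO difference over both ages was -0.04 (SE 0.20, adjusted p = 0.913).

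As a share of the summed TPM of the 4 genes, Gp1bb made up 5.14% to 10.9% in the 6 young or WT mice and 25.8% and 24.1% in the 2 old KO mice. Gp9 gave the largest share in all 8 libraries, from 52.3% to 70.0%. Gp1ba held 2.81% to 7.61% and Gp5 15.05% to 28.0%. These shares, the level of Gp1bb beside other genes and its length-corrected differences for genotype and age rest on its deposited transcript lengths. Those lengths differ from the ones of GENCODE vM21.

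Gp6, the collagen receptor that signals through the Fc receptor gamma chain, was near the limit of detection. Its level was 0.13 and 0.0445 TPM in young WT, 0.041 and 0.165 in young KO, 0.133 and 0.0267 in old WT, and 0.164 and 0.154 in old KO. All groups but old KO spread over the same range. The KO difference was 1.10 with an SE of 0.63 (adjusted p = 0.265), and it was 0.056 within batch 1 and 2.07 within batch 2.

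Itgb3, the beta chain of the fibrinogen receptor, was at 0.563 and 3.33 TPM in young WT, 0.408 and 0.884 in young KO, 4.47 and 6.49 in old WT, and 2.20 and 4.199 in old KO. The old mouse was above the young mouse of the same genotype and batch in 4 of 4 pairs. KO and WT mice of 1 age and batch were littermates, so these 4 pairs were not independent. Only the batch 2 young WT library reached into the range of the old mice. Itgb3 was higher in old mice by 2.07 (SE 0.29, adjusted p = 0.00964). It was 1 of 2 members that rose with age over both genotypes, the other being Gp1bb, in a comparison where 13.9% of all genes tested were called and 4.34% were higher in old mice. Within each batch the old mice were 1 litter and the young mice another, so age and litter cannot be told apart there. The rise was 2.59 within batch 1, where both old mice carried Xist and both young mice did not. Age and that difference cannot be told apart there either. The rise was 1.64 within batch 2, where no mouse carried Xist above the level given above, and 2.45 without the batch 2 young WT mouse. It was lost without the batch 1 young KO mouse (2.05, adjusted p = 0.0911), without the old batch 1 litter (1.59, adjusted p = 0.403), without a batch term (adjusted p = 0.054) and in limma on log2(TPM + 1) (1.31, adjusted p = 0.0794).

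Itgb3 also lay below the WT littermate in 4 of 4 litters, by 0.46 to 1.91 on the log2 scale. Over both ages its KO difference of -0.91 (SE 0.28) missed the threshold (adjusted p = 0.0632). Without the batch 1 young WT mouse it passed (-1.10, adjusted p = 0.0149), and without the batch 2 young WT mouse it was -0.57 (adjusted p = 0.146). With the length correction it was -0.45 (adjusted p = 0.192). Within batch 2 it was -1.22 and within batch 1 -0.57, where each group had 1 mouse.

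Its partner Itga2b (CD41), the alpha chain and the earliest of these genes to appear in blood development, was at 20.3 and 50.1 TPM in young WT, 23.4 and 30.1 in young KO, 47.0 and 37.7 in old WT, and 29.0 and 36.2 in old KO. The young WT mice bracketed all other mice, since the batch 1 mouse was the lowest and the batch 2 mouse the highest of the 8. The age difference was 0.35 (SE 0.18, adjusted p = 0.171) and the KO difference -0.15 (SE 0.18, adjusted p = 0.605). The single protein-coding transcript held 80.3% of the gene's TPM. The small RNA gene Gm23563 lies within the span of Itga2b on the same strand, at a mean of 21.0 TPM.

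Gp1bb, the other member that rose with age, differed between old and young by 1.57 (SE 0.28, adjusted p = 0.0202). Within 1 genotype the age difference was 0.99 in WT (SE 0.35, adjusted p = 0.321) and 2.11 in KO (SE 0.35, adjusted p = 0.0509). The call over both genotypes was lost without either old KO mouse (adjusted p = 0.0661 for each), without the batch 1 young KO mouse (0.102) and without the old batch 1 litter (1.64, adjusted p = 0.403). It was kept with the length correction (1.48, adjusted p = 0.045) and lost without a batch term (0.0515) and in limma on log2(TPM + 1) (0.0794). Within batch 1, where the old mice also differed from the young in Xist, the age difference was 1.49, and within batch 2 it was 1.64. Old and young mice of 1 batch came from different litters, so age and litter cannot be told apart within a batch.

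The other members were higher in old mice by less, apart from Ppbp. The age difference was 0.59 for Gp5 (SE 0.20, adjusted p = 0.0612), 0.70 for Pf4 (SE 0.26, adjusted p = 0.0834), 0.37 for Gp9, 0.36 for Gp1ba and 0.60 for Gp6, and none of these passed. The median age difference of the 9 members was 0.59, against 0.15 for all genes tested, and 8 of the 9 estimates lay above 0. As the median of all genes was above 0, most genes tested also had estimates above 0. With the length correction the median of all genes was 0.27, and that of the members is not given here. The median KO difference of the members was -0.04, against 0.10 for all genes, with 4 of 9 estimates above 0. Within WT mice 0 members passed for age, where 0.0861% of all genes were called (0.0666% higher and 0.0196% lower). Within KO mice 0 members passed, where 0.0861% were called as well (0.0626% higher and 0.0235% lower). In each of these tests 3 members had an unadjusted p under 0.05, as had 13.9% of all genes in WT mice and 24.4% in KO mice. DESeq2's Wald test called 1 member for age in WT mice, where it called 1.46% of all genes, and 2 in KO mice, where it called 13.2%. For KO against WT in young mice 0 members passed, with 0.0626% of all genes called (0.00783% higher and 0.0548% lower). There 2 members had an unadjusted p under 0.05 (9.46% of all genes), and DESeq2's Wald test called 0 members (1.53% of all genes).

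**Figure D3:**
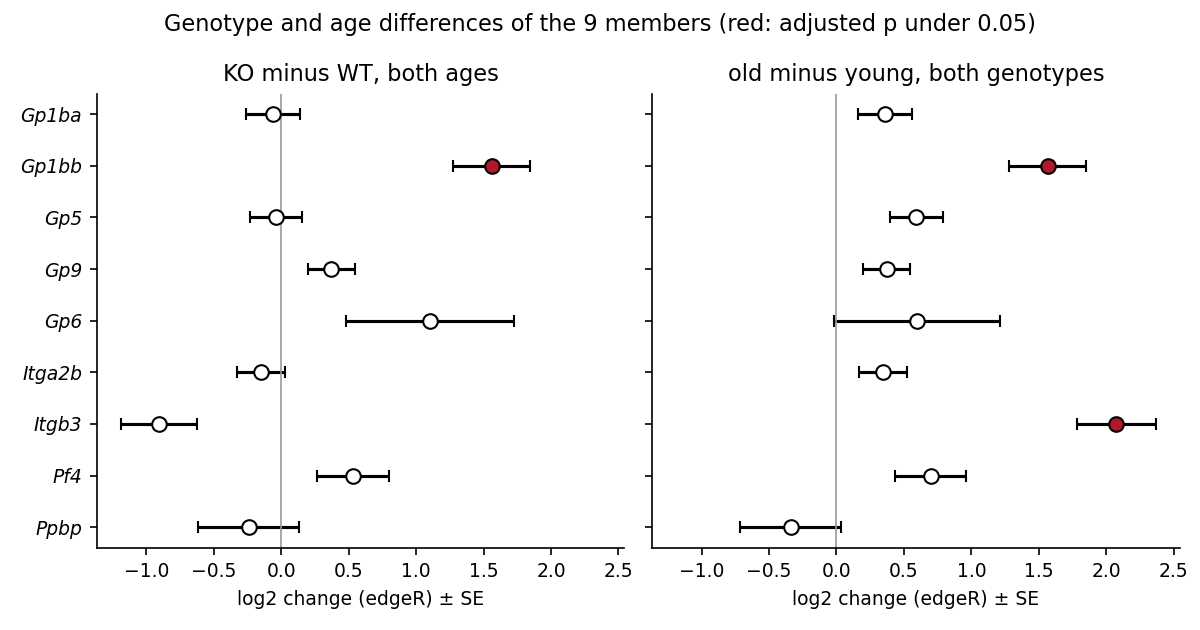
Fitted log2 differences with standard errors for KO minus WT over both ages (left) and old minus young over both genotypes (right), red where the adjusted p was under 0.05. Gp1bb is red in both panels (1.56 and 1.57) and Itgb3 in the right panel only (2.07).

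The 2 chemokines sit side by side on chromosome 5, Ppbp at 90768518 to 90770063 and Pf4 at 90772435 to 90773383, both on the plus strand. Pf4, a heparin-binding chemokine, was at 22.1 and 36.5 TPM in young WT, 37.3 and 48.9 in young KO, 35.2 and 66.8 in old WT, and 60.5 and 50.6 in old KO. Both young KO mice were above both young WT mice, and in the old groups the KO mice lay between the WT mice. The KO difference was 0.53 (SE 0.27, adjusted p = 0.212), with 1.01 in batch 1 and -0.04 in batch 2, and -0.09 with the length correction. The main protein-coding transcript held 61.5% of the gene's TPM and a retained-intron transcript held 35.8%. Counted on protein-coding transcripts alone, Pf4 passed for age (0.95, adjusted p = 0.0288).

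Ppbp, whose product is processed to the neutrophil attractant CXCL7, was at 3.53 and 5.82 TPM in young WT, 4.17 and 7.84 in young KO, 5.07 and 7.26 in old WT, and 3.02 and 2.21 in old KO. The 2 old KO mice were the lowest of the 8, and the other 3 groups overlapped. Against the WT littermate the log2 ratio was 0.24 and 0.43 in the young litters and -0.75 and -1.72 in the old litters. The KO difference was 0.43 in young mice (SE 0.46, adjusted p = 0.772) and -0.93 in old mice (SE 0.47, adjusted p = 0.276). The interaction was -1.36 (SE 0.66, unadjusted p = 0.0615, adjusted p = 1), so the opposite directions in the 2 ages were not shown to differ beyond the spread between mice. Behind the old KO levels were 171 and 66 estimated counts.

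**Figure D4:**
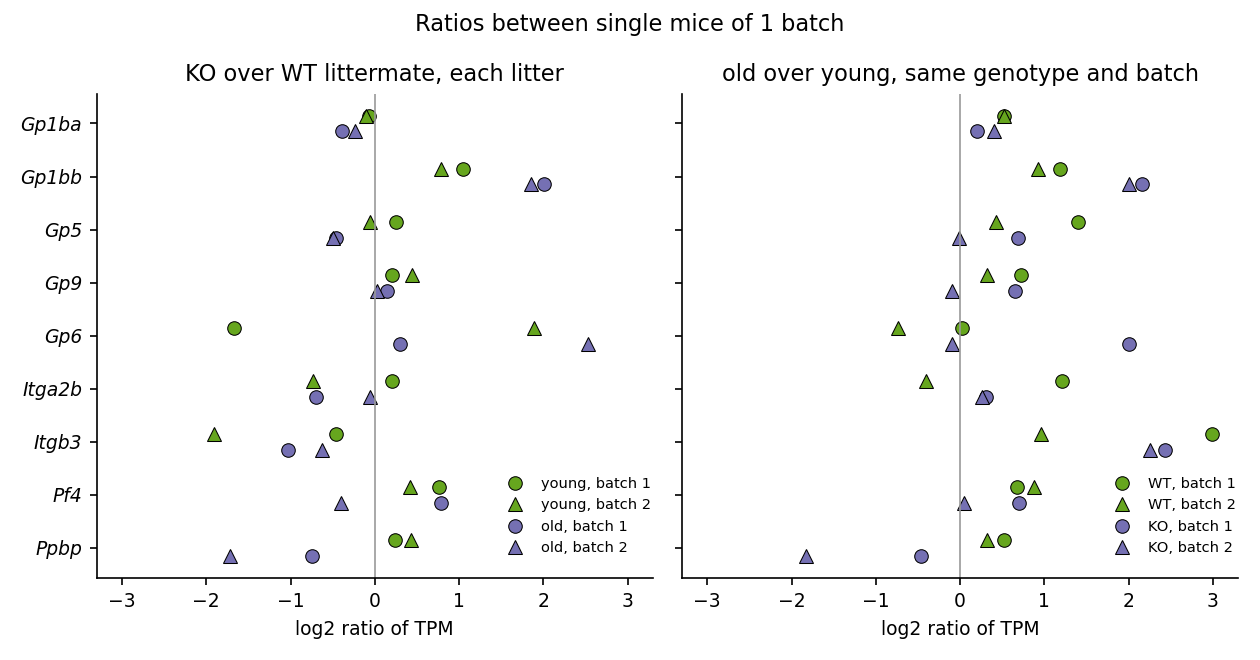
Log2 ratios of TPM between single mice of 1 batch, KO over WT littermate on the left (green young, purple old) and old over young on the right (green WT, purple KO), with circles for batch 1 and triangles for batch 2. All 4 Gp1bb ratios on the left lie between 0.78 and 2.01, all 4 Itgb3 ratios on the right between 0.96 and 2.99, and the Ppbp ratios on the left split by age.

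Across the 8 libraries the 36 pairs of members had Pearson correlations of log2(TPM + 1) from -0.67 to 0.93, with a median of 0.29 and 28 above 0. The highest was that of Itgb3 with Gp1ba. These points share libraries, batches and length slopes, so the values describe only these 8 libraries. Among 9828 other protein-coding genes with a mean of at least 5 TPM, the levels most like those of Itga2b were of Stx16 (r = 0.98), Acer2 (0.95), Rsf1 (0.94), Lrrk1 (0.94) and Fam84b (0.94). Each of these 5 genes was highest in the batch 2 young WT library, apart from Acer2, whose highest level was in the batch 1 old WT mouse (12.5 TPM against 12.3). For Pf4 they were Stard6 (0.97), Birc6 (0.95), Ift20 (0.94), Serf1 (0.94) and Gm2564 (0.93). For Gp9 they were Icam2 (0.95), Mri1 (0.92), Sdsl (0.92), Arhgef7 (0.90) and Myl10 (0.90).

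Other platelet genes were read from 5 lists. Of 22 other platelet receptors tested, 0 were higher and 4 lower in KO (all genes: 3.19% higher and 6.78% lower), with a median difference of -0.29. The KO test with the length correction called 4.93% of all genes. With the length correction 1 was higher and 3 lower, with a median of -0.12, and 1 to 5 were lower when 1 mouse was left out. P2rx1, an ATP-gated channel, fell from 29.6 ± 2.63 TPM (SD, n = 4) in WT to 12.1 ± 4.55 in KO (log2 -1.20, adjusted p = 0.0136), a call lost without the batch 2 old WT mouse (0.06). Pear1, an adhesion receptor, fell by 0.81 (adjusted p = 0.0294), with 2 of 8 fits that left out 1 mouse keeping the call, those without either of the batch 1 young mice. Cd9, a tetraspanin, was at 177.3 ± 41.6 TPM in WT and 182.4 ± 19.5 in KO.

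With age, 2 receptors rose and 4 fell (all genes: 4.34% and 9.61%), with a median of -0.23. The median turned to 0.19 under the length correction, where 1 rose and 0 fell (0.748% of all genes called). Selp, which encodes P-selectin, was at 2.45 to 6.32 TPM in the 4 young mice and 19.5 to 41.4 in the 4 old mice, without overlap, and rose by 2.40 (SE 0.28, adjusted p = 0.00357). The call of Selp was kept in all 8 fits that left out 1 mouse, and it was lost without the old batch 1 litter (1.96, adjusted p = 0.0785) and in limma on log2(TPM + 1) (2.25, adjusted p = 0.0555). Clec1b, the podoplanin receptor CLEC-2, rose by 1.58 from a low level (0.637 ± 0.295 to 2.39 ± 0.265 TPM, adjusted p = 0.0252), and 4 of 8 fits that left out 1 mouse kept the call. The call was lost without either old KO mouse (adjusted p = 0.0766 and 0.0849), without the batch 1 young KO mouse (0.111) and without the batch 2 young WT mouse (0.078). Ptgir, the prostacyclin receptor, fell by 1.29 (adjusted p = 0.0309), and the call was kept in 2 of the 8 such fits.

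Of 15 granule and secreted proteins, 0 rose and 3 fell in KO (all genes: 3.19% and 6.78%), and 3 rose and 0 fell with age (all genes: 4.34% and 9.61%). When 1 mouse was left out, 1 to 4 fell in KO and 1 to 3 rose with age. Mmrn1, the factor V carrier multimerin, was at 31.4 and 127.3 TPM in young WT, 6.37 and 11.8 in young KO, 48.2 and 134.9 in old WT, and 7.002 and 13.3 in old KO. All 4 KO mice lay below all 4 WT mice, and Mmrn1 fell by 2.85 (SE 0.21, adjusted p = 3.04e-04), the largest KO difference among the genes of the 5 lists. Nrgn, a calmodulin-binding protein, fell by 0.70 (adjusted p = 0.0366) and Rab27b, a granule-transport GTPase, by 0.64 (adjusted p = 0.0369), calls kept in 3 and 2 of the 8 fits that left out 1 mouse. Clu, the chaperone clusterin, was at 2.59 to 4.96 TPM in young and 15.2 to 26.95 in old mice and rose by 2.57 (SE 0.24, adjusted p = 0.00102). Sparc rose by 1.43 (adjusted p = 0.0274) and Timp3, a protease inhibitor, by 0.92 (adjusted p = 0.0292), each kept in 3 of the 8 fits. Srgn, the granule proteoglycan serglycin, and Ctla2a were the highest of the list, at means of 1006 and 174.2 TPM.

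Of 17 genes of signalling, cytoskeleton and enzymes, 4 fell in KO and 0 rose (all genes: 6.78% and 3.19%), with a median of -0.34. With age 5 fell and 0 rose (all genes: 9.61% and 4.34%), with a median of -0.35. With the length correction the medians were -0.16 and -0.04. There 3 fell in KO (4.93% of all genes called), and 0 fell and 1 rose with age (0.748%). Plek, the protein kinase C substrate pleckstrin, was at 40.3 and 80.1 TPM in young WT, 19.8 and 20.4 in young KO, 67.4 and 66.2 in old WT, and 14.6 and 23.6 in old KO. The KO and WT mice did not overlap, and Plek fell by 1.53 (SE 0.16, adjusted p = 0.00151). Ptgs1, cyclooxygenase 1, fell by 0.90 in KO (adjusted p = 0.0197), lost without the batch 2 old KO mouse (0.071) or the batch 2 old WT mouse (0.0676), and by 0.61 with age (adjusted p = 0.0456), kept in 2 of the 8 such fits. Plcg2 fell by 0.62 in KO (adjusted p = 0.0416), and Nbeal2 and Syk fell with age by 0.98 and 0.69 (adjusted p = 0.032 and 0.0251), kept in 2, 2 and 3 of the 8 fits. Bin2 and Fermt3, the integrin activator kindlin-3, were the highest of the list, at means of 764.0 and 379.5 TPM.

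Of 12 transcription regulators of megakaryocytes, 1 fell and 0 rose in each comparison (all genes: 6.78% lower in KO and 9.61% lower with age). Gata2 fell in KO by 0.61 (adjusted p = 0.0427) and Etv6 with age by 0.61 (adjusted p = 0.045), each kept in 2 of 8 fits that left out 1 mouse and lost with the length correction (adjusted p = 0.293 and 0.585). The age median of the list, -0.28, turned to 0.06 with that correction. Nfe2, the highest of these regulators at a mean of 782.4 TPM, was at 684.4 ± 131.7 in KO and 880.5 ± 61.4 in WT, and Meis1, the next, at 163.5 ± 31.1 and 233.3 ± 31.2. Of 8 other chemokine genes on chromosome 5, 6 averaged under 1 TPM, and 1 was higher in KO and 2 with age (all genes: 3.19% and 4.34%). Their distances from Pf4 and Ppbp were not examined. Cxcl10, the highest, was at 2.26 ± 1.22 TPM in WT and 6.73 ± 2.31 in KO (log2 1.83, adjusted p = 0.0316, kept in 4 of the 8 fits), and Cxcl9 was next at 0.5001 ± 0.227 and 1.80 ± 2.16. Cxcl1 and Cxcl15 rose with age (2.97 and 1.47, adjusted p = 0.0454 and 0.0482), both at means under 0.6 TPM in either age, kept in 2 and 1 of the 8 fits. With litter as a replicate block, 4.55% of all genes were called for KO against WT. Of the lists, 2 of the other receptors, 1 granule protein, 2 signalling genes, 0 regulators and 0 of these chemokine genes passed. Pear1 (adjusted p = 0.0536), Nrgn (0.0648), Rab27b (0.0674), Plcg2 (0.0685), Gata2 (0.065) and Cxcl10 (0.052) lost their calls.

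Without the old batch 1 litter, in which the mice carried Xist, 0.599% of all genes were called for KO against WT and 0.0783% for age. Of the genes described from the lists, Mmrn1 (-3.02, adjusted p = 7.90e-04), Nrgn (-0.96, adjusted p = 0.0371) and Plek (-1.45, adjusted p = 0.0148) kept their KO calls. P2rx1 (adjusted p = 0.0568), Ptgs1 (0.0955), Pear1 (0.118), Cxcl10 (0.138), Gata2 (0.18), Rab27b (0.193) and Plcg2 (0.201) lost theirs. For age Clu alone kept its call (2.77, adjusted p = 0.0285), and the adjusted p of the other genes described was 0.0785 for Selp and 0.403 or more for the rest. The other receptors then had 1 call in KO, lower, and 0 with age. When 1 mouse was left out, 1 to 7 signalling genes and 0 to 5 regulators fell in KO, and 0 to 6 and 0 to 3 fell with age.

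**Figure D5:**
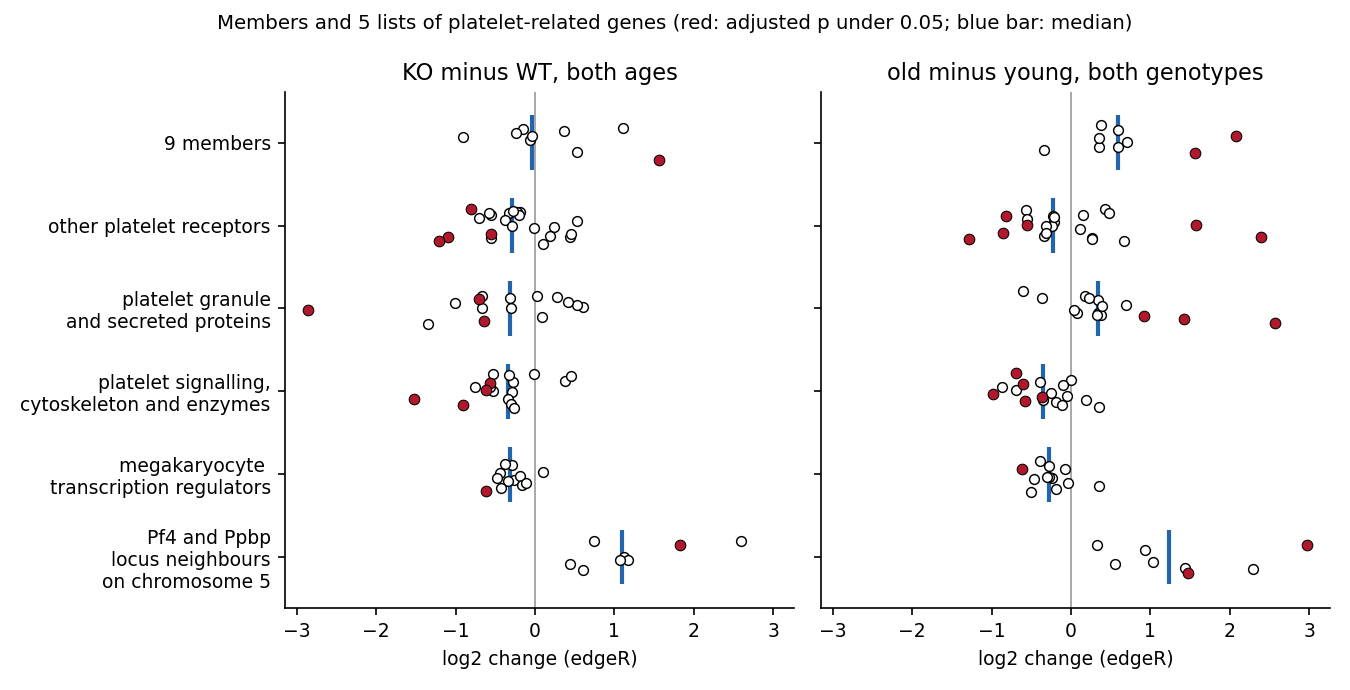
Fitted log2 differences of the 9 members and of the genes of 5 lists, KO minus WT (left) and old minus young (right), each point 1 gene, red where the adjusted p was under 0.05, blue bars for the median. The members' medians are -0.04 and 0.59, and Mmrn1 at -2.85 is the point farthest to the left.

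Marker genes of some other cell types moved with the groups as well, and those of others had few or no calls. Of the 9 genes of the LSK gate and stem cell list, 3 were higher (Ly6a, Slamf1 and Cd48) and 3 lower (Kit, Flt3 and Mecom) in KO. With age 0 were higher and 4 lower (Kit, Flt3, Cd34 and Hlf). Over all genes 3.19% were higher and 6.78% lower in KO, and 4.34% and 9.61% with age. Kit was at 547.2 TPM in the batch 2 young WT library, which stood apart. In batch 1 Kit was at 133.1 TPM in young WT, 144.3 in young KO, 146.1 in old WT and 63.4 in old KO. Whether the calls of the LSK, erythroid and mast cell markers held without 1 mouse or litter is not given here. Erythroid markers fell in KO in 8 of 11 genes tested (6.78% of all genes were lower) and with age in 7 of 11 (9.61% of all genes). Their summed levels were 1390 to 3077 TPM in old mice and 1854 to 3195 in young mice. Car2 alone, at 1271 to 2186 TPM over the 8 libraries, gave most of each sum. Mast cell and basophil markers fell in KO in 5 of 8 (6.78% of all genes), and 1 of 8 rose with age (4.34%). Of 9 neutrophil and 6 B cell markers 0 were called in either comparison. Of 7 T and NK cell markers 0 were called in KO and 1 fell with age (9.61% of all genes). Of 7 macrophage and monocyte markers 1 was higher in KO (3.19%) and 0 were called with age. Of 4 endothelial markers tested 2 were lower in KO (6.78%) and 1 rose with age (4.34%). Of the 8 genes on the mature megakaryocyte and platelet list outside the members, 1 was lower in KO (all genes: 6.78%). With age 1 of the 8 was higher (all genes: 4.34%). The list summed to 155.9 to 243.7 TPM in young WT, 89.2 to 133.3 in young KO, 208.6 to 266.0 in old WT and 93.2 to 187.6 in old KO. Nrgn alone, the 1 gene lower in KO, made up 90.4% to 96.8% of that sum in each library. The other 7 genes summed to 7.78 and 8.82 TPM in young WT, 6.45 and 7.88 in young KO, 11.6 and 12.4 in old WT, and 9.22 and 8.91 in old KO, so the young groups overlapped. Their part in the results for Gp1bb and Itgb3 was not tested.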

How the data were processed

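RNA with polyA tails was amplified with a low-input SMART-Seq kit, per the labels' protocols. The submitters' processing notes name kallisto, mm10 and DESeq2, without versions. The authors deposited kallisto's estimated counts and TPM per transcript for each library, per the file headers. Transcript identifiers were matched to GENCODE vM21 (mm10), 114200 of 115088, and summed to 47311 genes. The 888 others held at most 0.47% of a library's counts and were left out.

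Rounded estimated counts were kept where filterByExpr allowed (minimum count 10, minimum total 15, 25543 genes), scaled by TMM and tested with edgeR 4.0.16 (R 4.3.3) quasi-likelihood tests, Benjamini-Hochberg adjusted over all genes tested, threshold 0.05. For effects over both ages or genotypes the model had genotype, age and batch as terms and 4 residual degrees of freedom. For effects within 1 age or genotype and for the interaction it had the 4 groups and batch (3). The length correction added to the edgeR model an offset fitted on transcript length in each library. Limma 3.58.1, DESeq2 1.42.0 and the other alternatives appear in the closing section, and the sum of Gp1bb and Sept5 counts was chosen after seeing the data. The script was tested on simulated data. Python 3.11.15, pandas 2.3.3 and matplotlib 3.10.9 made tables and figures.

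The labels pair the mice: each of the 4 litters holds 1 KO and 1 WT mouse, so litter was also fitted as a block. Each litter had 1 age, so the age tests had no litter term and took littermates as separate replicates. Their p-values do not allow for differences between litters. Mice of 1 group differed far beyond counting error (chi-square per degree of freedom 85.8 to 264.6 over genes), and each mouse is 1 replicate. The members, lists and the rule for named genes (all members, the 2 highest genes of each list, and up to 3 of the largest changes past the threshold in each comparison over both ages or genotypes) were chosen with earlier results of these data known. The 5 genes of most similar level were found for Itga2b, Pf4 and Gp9. One gene that the rule names is not reported here. Protein sequences were not used here.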

Additional observations from a re-analysis of the deposited data

Results flagged for a closer look

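Ppbp had opposite differences at the 2 ages: both young KO mice were above their WT littermates and both old KO mice below theirs, with an interaction of genotype and age of -1.36 on the log2 scale in edgeR. The test of that difference did not pass (unadjusted p = 0.0615, adjusted p = 1), and 66 to 278 estimated counts per library lay behind it.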

How the results depend on the processing

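With 2 mice per group, 1 mouse or litter decided most calls. The number of members that passed for KO against WT over both ages, 1, became 2 in DESeq2's Wald test (20.7% of all genes called), 2 without the low-count filter (10.02%), 3 within batch 2 (26.8%) and 0 without the old batch 1 litter (0.599%), and was 0 to 2 when 1 mouse was left out. For age over both genotypes the 2 calls became 4 in DESeq2's Wald test (26.1% of all genes), 4 with protein-coding transcripts only (9.99%), and 0 in limma on log2(TPM + 1) (0.164%), in limma on log2(TPM + 0.1) (0.235%), without a batch term (0.658%) and without that litter (0.0783%), and were 0 to 3 when 1 mouse was left out. For KO against WT in old mice 1 became 0 without a batch term (0% of all genes called) and with litter as a replicate block (0.047%). The count also changed without that litter and when 1 mouse was left out. The block changed no count of members for the other genotype comparisons or the interaction. It was not run for age, since each litter had 1 age. For KO against WT in young mice the count was 0 to 1 when 1 mouse was left out. For age in WT mice 0 became 1 in DESeq2's Wald test (1.46% of all genes called) and 1 without the low-count filter (2.40%). That count also changed when 1 mouse was left out. For age in KO mice 0 became 2 in DESeq2's Wald test (13.2% of all genes called) and 2 without the filter (6.96%). It became 1 with the length correction (0.0391%) and 2 with protein-coding transcripts only (0.377%), and it also changed when 1 mouse was left out. Leaving out 1 mouse changed the share of all genes called as well as these counts. The interaction count stayed 0 in all alternatives run.

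Differences that missed the threshold changed sign as follows. For KO against WT the length correction gave 0.27 for Gp1ba, 0.18 for Gp5, 0.23 for Itga2b and -0.088 for Pf4. Protein-coding transcripts only gave 0.065 for Gp1ba and 0.086 for Gp5, batch 1 alone gave 0.074 for Gp5, and batch 2 alone gave -0.041 for Pf4. When 1 mouse was left out, Gp5 ran from -0.21 to 0.15 and Ppbp from -0.54 to 0.15. For age, Gp6 was -0.057 without the old batch 1 litter and -0.11 in batch 2, and Ppbp ran from -0.64 to 0.051 when 1 mouse was left out. The interaction of Itgb3 ran from -0.47 to 1.27 when 1 mouse was left out. The cause of these changes was not tested. Gp1bb in 18 of 21 alternatives for genotype and 13 of 20 for age, and Itgb3 in 15 of 20 for age, kept their calls, and neither reversed in these comparisons.

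Over all genes, calls for KO against WT were 816 higher and 1732 lower, and 675 and 585 with the length correction. For age they were 1109 and 2454, and 147 and 44 with it, and the median difference moved from 0.15 to 0.27. In estimated CPM, not scaled for length, Itga2b ranked 1, Gp5 2, Gp9 3 and Pf4 5 among the members. On protein-coding transcripts Pf4 averaged 28.7 TPM against 44.7.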

Other observations

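The share of Pf4 TPM on the retained-intron transcript was 23.4% to 31.3% in the 4 batch 1 libraries and 33.1% to 51.3% in the 4 batch 2 libraries, without overlap. Retained-intron transcripts of all genes held 3.59% to 5.11% of TPM in batch 1 and 4.82% to 6.499% in batch 2. Myl10, one of the genes most like Gp9 in level, was at 594.8 TPM in the batch 1 old KO mouse and at 48.4 to 154.3 in the other 7 mice.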
